A study of Mus musculus with 12 samples.

Results

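Nrf2 binding was followed at 4 genes of the glutathione system, Slc7a11, Gclm, Gclc and Gsr, in mouse peritoneal macrophages that carried either the normal Nrf2 gene (WT, wild type) or 2 copies of the Nrf2(AY/AY) allele (AY). The members are all peaks that overlap a window of 50 kb on either side of an approximate gene start. The starts, in the mm9 build, were position 50247500 of chromosome 3 for Slc7a11, 121948500 of chromosome 3 for Gclm, 77602300 of chromosome 9 for Gclc and 34764000 of chromosome 8 for Gsr. The windows held 34 of the 8644 peaks in the 6 lists, and these formed 9 of the 4147 regions that arise when overlapping peaks of all lists are merged. The rule itself uses no measured value.

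Occupancy was measured by chromatin immunoprecipitation with an anti-Nrf2 antibody and sequencing (ChIP-seq). Mice aged 7 to 8 weeks were injected with 4% thioglycolate broth, which draws macrophages into the abdominal cavity, and the cells were harvested 4 days later. Cells of both genotypes were exposed to diethyl maleate at 100 µM for 4 hours, so no untreated state enters the comparison. Each genotype had 3 ChIP libraries with 1 peak list each. The lists held 1604, 826 and 1533 peaks for WT and 2154, 1441 and 1086 for AY; here and below, values of a genotype follow the order of replicates 1, 2 and 3. Matched input libraries were not analysed here. The labels name no promoter or cell type that limits the AY allele, which is known for an alanine-to-tyrosine exchange in the basic region through which Nrf2 touches DNA. Peak lists carry no expression values, so the labelled cell type could not be checked against marker genes. How deeply each library was sequenced is unknown, and whether each library stands for its own animal is not stated in the labels.

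Glutathione is the main small thiol of the cell. Its supply depends on the import of cystine, on the ligase that joins cysteine to glutamate, and on the reductase that returns the oxidised form to the reduced one. Nrf2 pairs with a small Maf protein and binds antioxidant response elements, and genes of this pathway are among its classic targets. Diethyl maleate reacts with glutathione and depletes it, and it also releases Nrf2 from its inhibitor Keap1.

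The sequence before the start was available for Slc7a11 and Gclm, 2 of the 4 genes, from RefSeq promoter windows on the GRCm38.p6 build. They are shown because the genes differ in how near the peaks came to the start: a merged region reached across the Slc7a11 start, whereas the region before Gclm ended 1546 bp short of it. Each run holds the 250 bases before the start, 5′ to 3′ in the direction of the gene, with matches to the loose core TGANNNNGC on either strand in capitals.
Slc7a11 (chr3:50443614-50443863, minus strand): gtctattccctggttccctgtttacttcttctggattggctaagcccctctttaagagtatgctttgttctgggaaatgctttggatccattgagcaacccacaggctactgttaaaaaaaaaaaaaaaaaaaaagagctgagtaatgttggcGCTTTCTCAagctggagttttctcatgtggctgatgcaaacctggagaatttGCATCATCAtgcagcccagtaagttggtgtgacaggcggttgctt
Gclm (chr3:122245307-122245556, plus strand): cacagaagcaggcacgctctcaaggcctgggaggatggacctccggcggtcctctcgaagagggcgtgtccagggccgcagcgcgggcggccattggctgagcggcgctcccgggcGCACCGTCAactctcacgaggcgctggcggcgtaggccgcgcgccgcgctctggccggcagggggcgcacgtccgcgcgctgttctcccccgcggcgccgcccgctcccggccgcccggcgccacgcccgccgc

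The stricter core TGACNNNGC, the form common to antioxidant response elements, was searched on both strands of the full windows, which run from 250 bases before the start to 50 bases after it. It occurred once in the Gclm window, 134 to 126 bases before the start on the reverse strand, and not in the Slc7a11 window. Of 32851 promoter windows of this length, 12.4% held it. The looser core TGANNNNGC contains the stricter one. It matched 3 times in the Slc7a11 window, of which 2 lie in the printed part and 1 lies after the start, and 41.3% of all windows held it. The AP-1 type element TGANTCA was in neither window and in 7.81% of all windows. The 2 builds were not aligned with each other, so these letters cannot be laid over the mm9 peaks, and no match is claimed to be a bound site.

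At Slc7a11 and Gclc the AY protein gave peaks at the sites of the WT protein, and at Gclm and Gsr no AY library held a peak within 50 kb. The 4 windows together held 9, 6 and 9 peaks of the WT libraries and 4, 3 and 3 of the AY libraries. Every WT library thus exceeded every AY library, and the mean was 8 ± 1.73 peaks for WT against 3.33 ± 0.577 for AY (SD, n = 3). The difference, 4.67 fewer peaks in AY, had an exact permutation p of 0.1 (two-sided), which is the smallest that the 20 assignments of 3 against 3 libraries can give. The share of each list gave the same order, since the windows took 0.561%, 0.726% and 0.587% of the WT lists against 0.186%, 0.208% and 0.276% of the AY lists (exact permutation p = 0.1). By gene, the numbers of the genotypes did not overlap at Gclm and Gsr. As background, all chromosome bins of 100 kb that held any peak were counted, and every WT library had more peaks than every AY library in 5.88% of these 2926 bins. These bins needed a peak in only 1 library, whereas each of the 4 windows held a region with a peak in every WT library. Of all 566 such regions, 38.2% had no AY peak, so the share of bins is not a matched background.

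**Figure D1:**
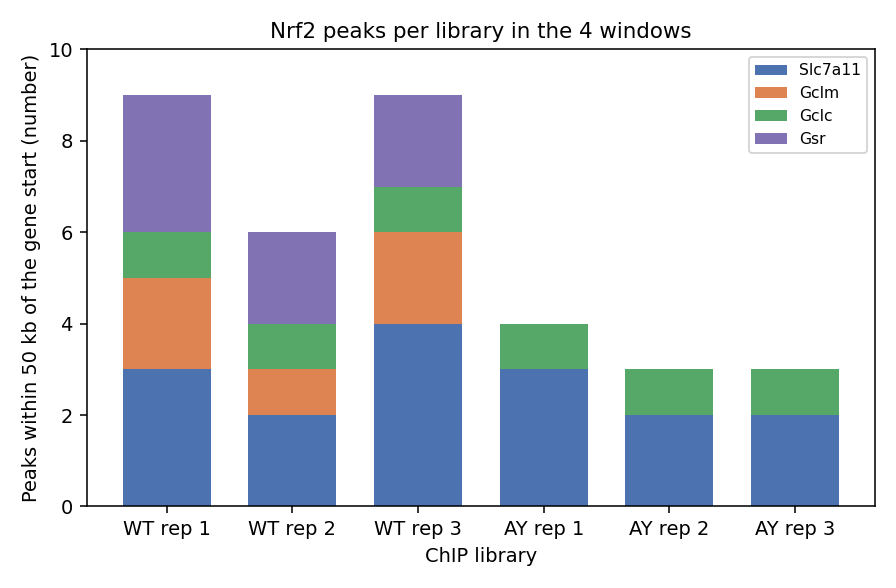
Number of Nrf2 peaks within 50 kb of each gene start (y axis) in the 6 ChIP libraries (x axis), with 1 colour per gene stacked in each bar. The WT bars reach 9, 6 and 9 and the AY bars 4, 3 and 3, and the AY bars hold no Gclm or Gsr peak.

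Of the 9 regions, 3 were present in all 6 libraries, 3 were WT-restricted, and none was AY-restricted. Restricted means a peak in all 3 libraries of 1 genotype and in none of the other. Over all 4147 regions, 4.87% had a peak in every library, while the WT-restricted share was 5.21% and the AY-restricted share 9.38%. The 2 other Gclm and Gsr regions were in 2 and 1 WT libraries, and 1 Slc7a11 region was in 2 WT libraries and 1 AY library. All 9 regions held a WT peak, and 5 of them held no AY peak. The share without an AY peak among all 2291 regions with a WT peak was 66.4%, so the count of 5 in 9 lay near the background. The 4 regions with an AY peak all held a WT peak, whereas 29.3% of all 2626 regions with an AY peak did. Among the 6 regions held by every WT library, 3 had no AY peak and 3 had a peak in every AY library, where the shares over all 566 such regions were 38.2% and 35.7%. These counts are small, and the genes are known Nrf2 targets, so the counts are a description only.

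The windows held 3 regions at Slc7a11, 2 at Gclm, 1 at Gclc and 3 at Gsr. Among 26215 bins of 100 kb, 11.2% held at least 1 region, 2.53% at least 2 and 0.797% at least 3. Near the rule's limit, the outermost region inside a window began 49851 bp after the Gclm start and crossed the edge. Its centre lay 50.16 kb after the start, outside the window. The bins count a region by its centre and the windows by any overlap, so by the rule of the bins Gclm held 1 region. The nearest region outside, also after Gclm, lay 98.2 kb from the start. No annotation of the mm9 build was used, so exons, introns and untranslated regions are not assigned, and distances are given from the approximate starts with positive values into the gene.

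**Figure D2:**
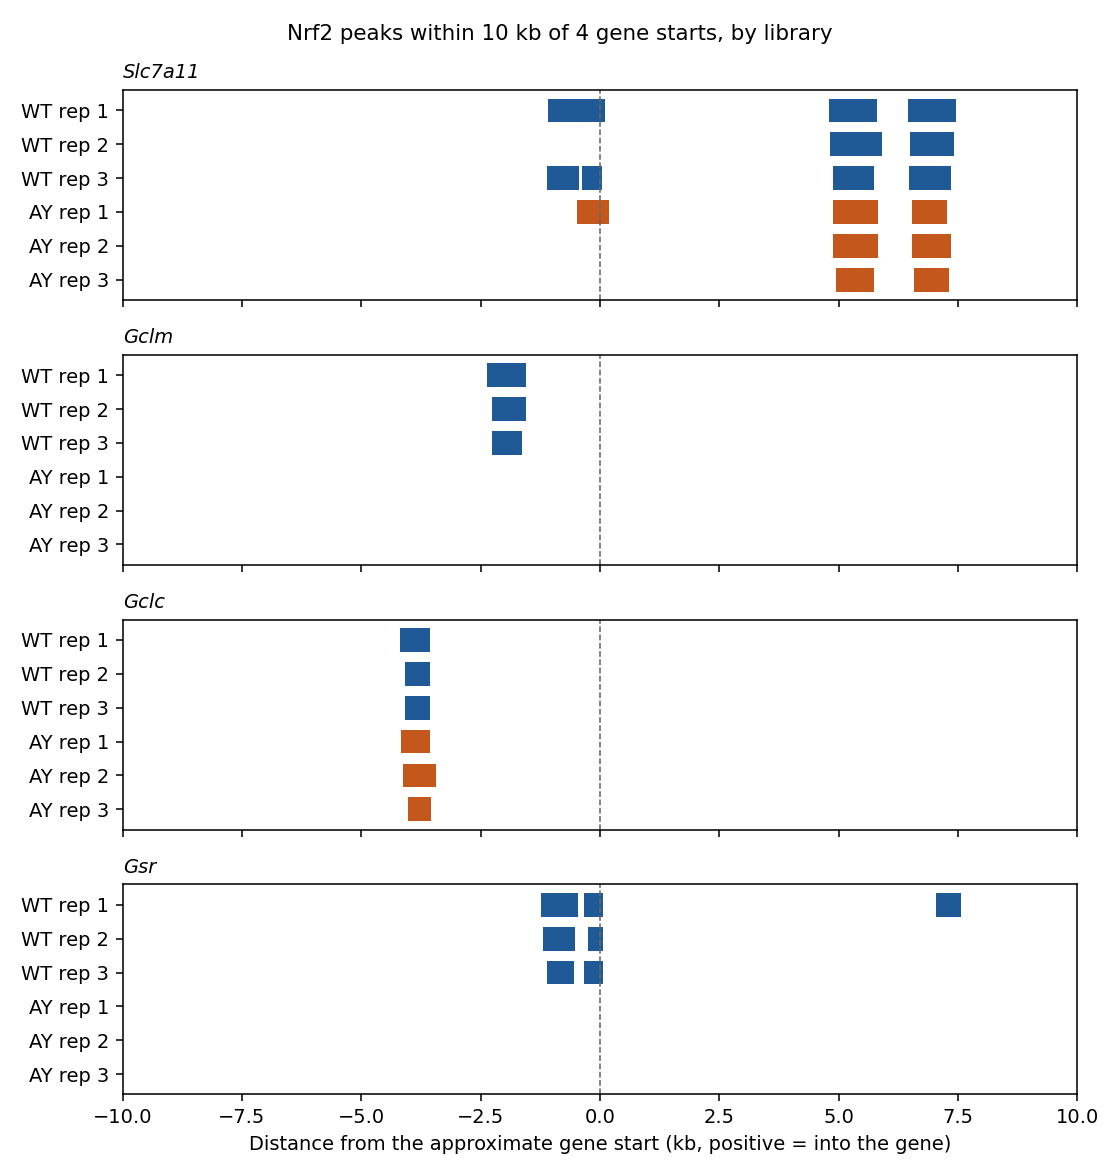
Position of each Nrf2 peak (bars) against its distance from the approximate gene start in kb (x axis, positive into the gene), with 1 line per ChIP library (y axis) and 1 panel per gene, within 10 kb. Peaks of WT (blue) and AY (orange) libraries lie at the same places at Gclc and inside Slc7a11, the Gclm and Gsr panels hold WT peaks only, and the Gclm region 50.2 kb after the start is outside the plotted range.

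Slc7a11 encodes xCT, the transporter subunit of the system that takes up cystine in exchange for glutamate. A pair of regions inside the gene had peaks in all 6 libraries, but their place in the lists differed between the genotypes to unequal degrees. The first region, 5.36 kb after the start (chr3:50241592-50242696), was at or near the top of every list. In WT it took rank 2 of each list, with scores of 1938, 1298 and 1392. In AY it took ranks 8, 5 and 4, with scores of 1946, 1983 and 1196. The score is the authors' own value for a peak, read as the log-scaled p-value that MACS writes, and it is compared only within a list. At this site each AY library thus kept one of its strongest peaks.

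The second Slc7a11 region lay 6.95 kb after the start (chr3:50240046-50241046), with 545 bp between it and the first. Its ranks in the WT lists were 6, 6 and 4, with scores of 1349, 775 and 1242. Its ranks in the AY lists were 255, 198 and 208, with scores of 382, 302 and 184. In WT lists the 2 sites were almost neighbours in rank, with 3, 3 and 1 peaks ranked between them. In the AY lists 246, 192 and 203 peaks were ranked between them. The site thus held a peak in every AY library, but not near the top of the list.

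Ranks from lists of different lengths cannot be set against each other, so genotypes were compared on the rank within the 202 regions that every library holds. On that scale the WT libraries placed the region at 6.95 kb at 5, 4 and 3, and the AY libraries placed it at 102, 93 and 85. Mean ranks were thus 4 ± 1 for WT against 93.3 ± 8.50 for AY (SD, n = 3), a difference of 89.3 places, which is given without a test because this region was singled out after its values were seen. The change was the 17th largest fall from WT to AY among the 202 regions, whose median absolute change was 40.2 places. At a mean WT rank of 4 the region had little room to rise and much to fall. All 202 regions are therefore not a matched background for it. The region at 5.36 kb was first in each WT library and took places 5, 3 and 2 in the AY libraries (difference 2.33 places, exact permutation p = 0.1, two-sided; Benjamini-Hochberg adjusted p = 0.3 over 6 tests). The gap between the 2 regions was 4, 3 and 2 places in WT and 97, 90 and 83 places in AY, a difference of 87 places that is likewise a description. Only 3 pairs of regions held by all libraries lay within 2 kb of each other in the genome, and the Slc7a11 pair was the closest. The members of the other pairs also changed unequally. On chromosome 16 the mean rank changed by 18 and -28 places (AY minus WT), which is 46 places apart, and on chromosome 2 by -75.3 and -18.3 places, which is 57 places apart.

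Peak widths did not overlap between the genotypes at the second site. Its peaks spanned 1001, 910 and 883 bp in the WT lists against 740, 806 and 749 bp in the AY lists. Every WT peak was wider than every AY peak, on average 931 ± 61.8 bp against 765 ± 35.8 bp (SD, n = 3; no test, as above). Of the 202 regions, 5.94% showed this order of widths. At the first site the widths overlapped between genotypes, at 982 ± 128 bp for WT against 895 ± 79.2 bp for AY (SD, n = 3; exact permutation p = 0.4). The peak centres overlapped between genotypes at both sites. Their means differed by 24.8 bp at the first (AY minus WT; exact permutation p = 0.4) and by -8.83 bp at the second. Without WT replicate 2 the difference at the first site was 42 bp (exact permutation p = 0.1, the smallest that 3 against 2 libraries allow), so these data do not show whether the centres stayed in place. Whether read depth takes part in the widths was not tested.

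The remaining Slc7a11 region reached from 1.12 kb before the start to 0.19 kb after it (chr3:50247307-50248616) and was found in 3 libraries. WT replicate 1 had 1 broad peak of 1187 bp there, at rank 334 with a score of 236. WT replicate 3 had a pair of peaks, the larger with rank 378 and a score of 147 and the smaller, which ended before the larger began, with a score of 85.8. AY replicate 1, the longest list, had 1 peak of 667 bp at rank 1333 with a score of 91.4, centred 0.14 kb before the start. WT replicate 2, the shortest list, and AY replicates 2 and 3 had none. The region was thus in 2 WT libraries and 1 AY library, but the AY peak stood lower in its list than the WT peaks in theirs. The smaller WT replicate 3 peak lay within the span of the AY peak, whereas the larger overlapped only its edge. That smaller peak was closest to the AY peak in relative rank, at 804 of 1533 against 1333 of 2154. With a score of at least 100, the best peaks of WT replicates 1 and 3 remained and the AY peak did not. The same held with lists cut to the length of the shortest. In both settings 2 WT and 0 AY libraries thus held the merged region. The score limit also removed the smaller WT replicate 3 peak, which covered the start. The larger peak did not reach the start, so at that limit only WT replicate 1 kept a peak across it. Next to Slc7a11 on its 5′ side, the RefSeq order of genes on GRCm38.p6 places the non-coding gene Gm6209.

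Gclc encodes the catalytic subunit of glutamate-cysteine ligase, the enzyme of the first and limiting step of glutathione synthesis. It had a single region, 3.82 kb before the start (chr9:77598105-77598861), with a peak in every library. Its WT peaks had ranks of 153, 129 and 105, with scores of 395, 227 and 330. Its AY peaks had ranks of 363, 295 and 305, with scores of 293, 218 and 138. Its place was thus within the best 6.85% to 15.6% of each WT list and the best 16.9% to 28.1% of each AY list.

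Within the 202 shared regions the WT libraries placed the Gclc site at 93, 82 and 61, and the AY libraries at 132, 112 and 108. The genotypes did not overlap, and mean ranks were 78.7 ± 16.3 for WT against 117 ± 12.9 for AY (SD, n = 3), a difference of 38.7 places (exact permutation p = 0.1, adjusted p = 0.3). Without WT replicate 2 it was 64.5 places, but there the ranks run over the regions held by all remaining libraries. That is not the set of 202, so the sizes of the 2 differences cannot be compared. The difference of 38.7 is close to the median absolute change of all 202 regions, 40.2 places. Widths of 569 ± 64.2 bp for WT and 590 ± 98 bp for AY (SD, n = 3) overlapped (exact permutation p = 0.7), and the centres differed by 34 bp (exact permutation p = 0.3). All 3 shared regions of the glutathione genes had better ranks in every WT than in every AY library, an order that 32.2% of the 202 regions showed, while 28.2% showed the reverse. The 2 Slc7a11 regions, at place 1 and at places 5, 4 and 3 in the WT libraries, had little room to rank better in AY. The count can therefore not be set against that share. No other region was found in the Gclc window. The next one after the gene, 331.5 kb from the start, had a peak in each WT library and in no AY library.

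**Figure D3:**
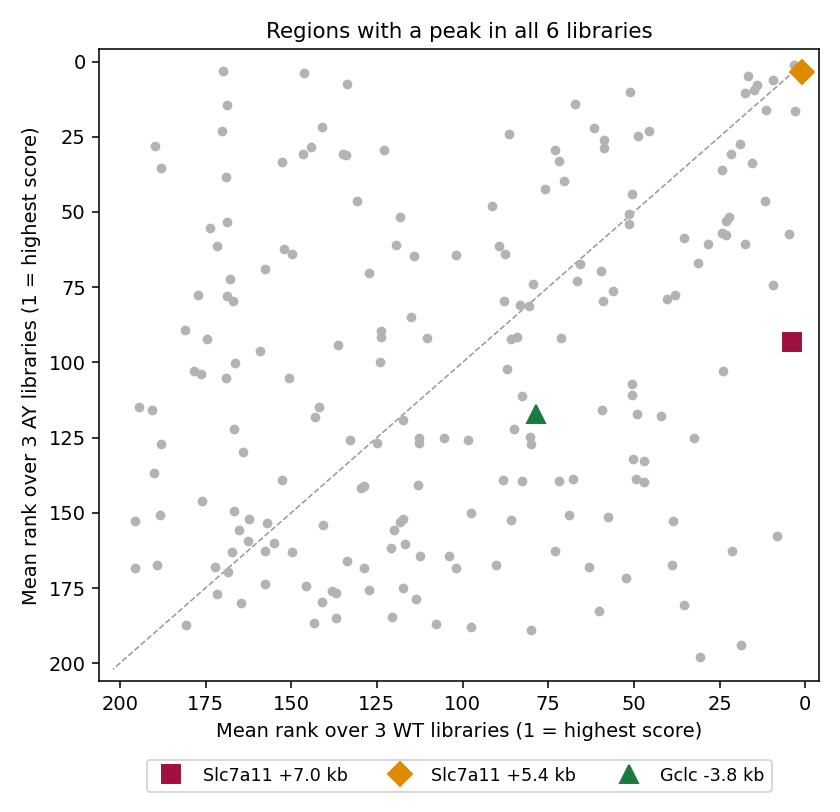
Mean rank of the peak score over 3 WT libraries (x axis) and 3 AY libraries (y axis) for the 202 regions with a peak in every library, where 1 is the highest score, both axes are reversed and the dashed line marks equal ranks. The Slc7a11 region at 5.4 kb lies in the top corner, the Slc7a11 region at 7.0 kb lies at 4 on the WT axis and at 93.3 on the AY axis, and the Gclc region lies at 78.7 and 117.

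Gclm encodes the modifier subunit of the same ligase, which lowers feedback inhibition of the catalytic subunit by glutathione. The main region lay 1.96 kb before its start (chr3:121946127-121946954) and was WT-restricted. Its WT peaks had ranks of 251, 106 and 226, with scores of 281, 246 and 207. No AY list held a peak there, and the AY peak nearest to the Gclm start was 98.3, 98.2 and 668 kb away. The peaks of AY replicates 1 and 2 at that distance belonged to 1 region at ranks 1769 and 1297, which held no WT peak. Gclc ranked above it in WT replicates 1 and 3 and below it in WT replicate 2, with 97, 22 and 120 peaks ranked between the 2 sites. The order of the pair of ligase subunits thus differed among the WT lists, and of the 2 genes only Gclc had AY peaks in its window.

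Regions that ranked at least as high as the Gclm region in WT mostly had AY peaks. The mean rank of the Gclm region was 14.4% of the list in WT, and 149 of the 566 regions that all WT libraries held ranked at least as high, itself included. Of those 149, 32 (21.5%) had no AY peak and 93 (62.4%) had a peak in every AY library. The group takes in all better-ranked regions, so these shares are not those of regions at the same rank. The WT peaks were 814, 717 and 611 bp wide, and their centres fell between 1.90 and 1.97 kb before the start.

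The second Gclm region lay 50.2 kb after the start (chr3:121998351-121998973), farther away than the RefSeq length of the gene and on the side where Dnttip2 is the next protein-coding gene in the GRCm38.p6 order. It was found in WT replicates 1 and 3, at ranks 855 and 572 with scores of 104 and 111. It was absent from WT replicate 2 and from the 3 AY lists. On the 5′ side, the annotation of that build places the non-coding gene Gm46822 directly next to Gclm, so the region before the start cannot be assigned to 1 of the 2 genes by position.

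Gsr encodes glutathione reductase, which uses NADPH to return glutathione disulfide to glutathione. A pair of regions at its start was WT-restricted, and another region was found in 1 WT library. The region at 0.85 kb before the start (chr8:34762760-34763549) had ranks of 367, 294 and 693 in WT, with scores of 219, 126 and 97.1. The region that spans the start (chr8:34763661-34764070) had ranks of 781, 805 and 512 in WT, with scores of 114, 50.7 and 119. The 2 regions were separated by 111 bp. The region before the start had the higher score in WT replicates 1 and 2, and the one at the start in WT replicate 3.

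Both Gsr sites stood lower in the WT lists than the lead regions of the other genes. Their mean ranks in WT were 34.6% and 59.8% of the list, against 14.4% for the Gclm region and 10.7% for the Gclc region. In WT replicate 2 the peak at the start stood at rank 805 of 826, just above the lowest score that a list contains, 50. With a score of at least 100 required, neither Gsr region was held by every WT library, and the count of WT-restricted regions in the 4 windows fell from 3 to 1, the Gclm region. Of all regions in every WT library, 339 ranked at least as high as the Gsr region before the start. Among these, 98 (28.9%) had no AY peak. Of the 516 that ranked at least as high as the region at the start, 187 (36.2%) had no AY peak. Both groups take in all better-ranked regions, so they do not give the share at the ranks of the sites themselves.

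The third Gsr region lay 7.29 kb after the start (chr8:34771032-34771558), with 1 peak in WT replicate 1 at rank 1078 and a score of 81.4. The nearest AY peak to the Gsr start was 161 kb before it in all 3 AY libraries, in a region (chr8:34602431-34603328) at ranks 574, 340 and 345 that held no WT peak. The gene directly before Gsr in the GRCm38.p6 order is the non-coding Gm33433, followed on that side by the protein-coding Ubxn8.

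**Figure D4:**
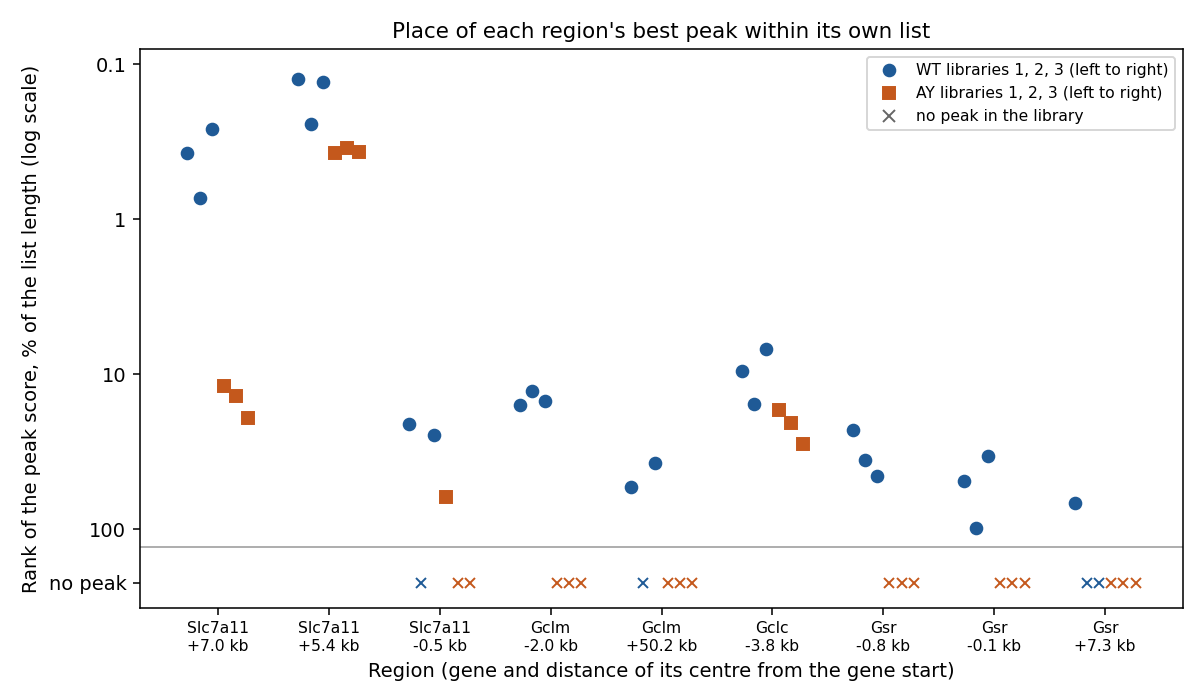
Rank of the best peak of each of the 9 regions (x axis, gene and distance from its start) as a percentage of the length of its own list (y axis, log scale, highest scores at the top), with WT libraries as circles, AY libraries as squares and crosses for libraries without a peak. The Slc7a11 region at 7.0 kb lies below 1% in WT and between 11.8% and 19.2% in AY, and the Gclm and Gsr regions carry crosses in all AY libraries.

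The order of the genes could be read over all 4 in the WT lists, but only over Slc7a11 and Gclc in the AY lists, which hold no Gclm or Gsr peak. In all 6 libraries the Slc7a11 region at 5.36 kb came first and the Slc7a11 region at 6.95 kb came next. The Gclc region followed in 5 of the 6 libraries, whereas in WT replicate 2 the Gclm region stood between the second Slc7a11 region and Gclc. In the AY lists 107, 96 and 96 peaks were ranked between the second Slc7a11 region and Gclc. In the WT lists that distance was 146, 122 and 100 peaks. The lists differ in length, so these distances cannot be compared between the genotypes.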

How the data were processed

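Nrf2 ChIP-seq peak lists of 6 libraries (3 WT, 3 AY) were used. Cells had been fixed with 1% formaldehyde for 10 min, per the labels' protocols. The submitters' processing notes name MACS 1.4, Bowtie2, bcl2fastq 2.15.0 and the mm9 build; their settings and the use of the inputs are not stated there. The deposited lists, 1 per library, give each peak a position in base pairs and a score. Since depth is unknown, absence of a peak means only that the caller did not list the site.

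Peaks overlapping by at least 1 bp were merged into regions, with positions counted from 1. A region's rank in a library is that of its best peak. Genotypes were compared by exact two-sided permutation tests, whose smallest p is 0.1, with Benjamini-Hochberg adjustment over the 6 tests of rank, width and centre of lead regions in all libraries. As nothing says that libraries are separate animals, p-values cover only spread among libraries, possibly technical. Every region in the windows is named; the lead region of a gene is the one in most libraries with the best mean relative rank. The second Slc7a11 region and the rank gap were described after their values were seen and were not tested. Members and lists were chosen with earlier results of these data known. Strands of Gclc and Gsr come from general knowledge. Other glutathione genes (such as Gss, Ggt1, Slc3a2 and Chac1) were not analysed here, since no mm9 annotation was used. Python 3.11.15 and NumPy 2.4.6 were used, and the counting and tests were tested on simulated data. Alternatives were other score limits, list lengths, merging rules and windows, libraries left out, and the replicate number as a block.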

Additional observations from a re-analysis of the deposited data

How the results depend on the processing

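With a score of at least 100, WT-restricted regions fell from 3 to 1, since a peak of each Gsr region lies under that limit. Merging peaks up to 1 kb apart joined the Slc7a11 pair and the Gsr pair, leaving 7 regions. With single libraries left out, 3 to 4 regions were WT-restricted, and no AY-restricted region arose in any of 14 alternatives. The difference in peaks per library stayed between -5.67 and -3.67 in 15 alternatives, and each rank difference kept its sign. For the second Slc7a11 region, the alternatives were chosen after seeing the data. Its rank difference was 68.3 with a score of at least 100 and 107 without WT replicate 2. Both settings rank over other sets of regions than the main one, so these sizes cannot be compared with the main difference. In the main ranking WT replicate 2 placed the region at 4, equal to the WT mean of 4. Leaving that library out would thus not move the mean on a fixed set of regions. A pair of small differences changed sign when 1 library was left out: the centre shift of the second Slc7a11 region ranged from -25.1 to 6.75 bp, turning without AY replicate 1, and the width difference of the Gclc region from -27.5 to 70.5 bp, turning without AY replicate 2. The looser core gave 3 motif matches in the Slc7a11 window in place of 0. With the replicate number as a block, the difference in peaks was -4.67 (exact sign-flip p = 0.25, the smallest possible) and no direction changed. No pairing was assumed: over 1897 regions, deviations of same-numbered libraries correlated at 0.0961, 0.0861 and 0.195, each higher than with other numbers, a hint from the data only. Unknown depth limits every absence.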
